A study of Mus musculus with 6 samples.

Results

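The genes described here encode subunits of the transcription factor NF-kB and the proteins that hold it in check, in mouse mesenchymal stem cell cultures irradiated with terahertz pulses. They were taken by name, as the probe sets annotated with exactly 1 of the symbols Nfkbia, Nfkbie, Nfkbiz, Nfkb1, Nfkb2, Rel, Relb, Tnfaip3, Tnfaip2 and Bcl3. Of these 10 genes 9 had probe sets, 20 of the 45037 tested, and Nfkb1 was not analysed here. Expression was measured on Affymetrix arrays in 3 irradiated cultures and 3 control cultures from 3 independent experiments, each with 1 of either kind standing side by side. Irradiated cultures were exposed for 12 h to broadband terahertz pulses of 35 fs centred near 10 THz, at a repetition rate of 1 kHz and an average power density of 1 mW/cm2. Control cultures were not irradiated. All 6 cultures were kept at 26 to 27 °C, had 5% serum and, from 48 h before irradiation, carried a mixture that drives fat cell formation: rosiglitazone (Roziglitazone in the labels) at 1 µM, insulin at 5 µg/ml, 3-isobutyl-1-methylxanthine at 100 µM and dexamethasone at 1 µM. Dexamethasone is a glucocorticoid, a class of drug known to restrain NF-kB signalling, and it was present in both groups. The labels name 1 commercial source of cells and do not say whether the 3 experiments used separate animals.

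NF-kB is a family of paired DNA-binding subunits that waits in the cytoplasm, bound to inhibitor proteins called IkB. Inflammatory cytokines and bacterial products activate an IkB kinase, the inhibitor is destroyed, and the subunits enter the nucleus and switch on chemokine, cytokine and survival genes. Among the first targets are the genes for the inhibitors themselves, so their transcripts are commonly read as a gauge of NF-kB activity. In stromal cells and fat cells the pathway is known for driving inflammatory gene expression and for opposing fat cell formation.

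No NF-kB gene passed the test between irradiated and control cultures. Over the 20 probe sets the limma adjusted p lay between 0.566 and 0.991, and over all probe sets of the array 0% were called, with a smallest adjusted p of 0.188. The widest difference belonged to Tnfaip3, which was 1.46-fold lower in irradiated cultures. The inhibitor gene Nfkbia was lower in experiments 1 and 3 and not in experiment 2. Rel, Relb and Nfkbie had mean differences of 0.02 or less in size on the log2 scale. For 8 of the 9 genes the 3 experiments lay further apart than the irradiated and control means did, as also holds for 79.9% of all genes on the array. Values below are log2 expression, differences are irradiated minus control, and each gene is read from its brightest probe set unless another is named.

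Tnfaip3 encodes the ubiquitin-editing enzyme A20, which is induced by NF-kB and shuts down signalling from cytokine and Toll-like receptors. Its probe set 1433699_at read 8.07, 8.08 and 7.86 in irradiated cultures of experiments 1, 2 and 3, against 8.32, 8.40 and 8.93 in their controls. All 3 irradiated arrays lay below all 3 control arrays, and the control of experiment 3 stood highest. The log2 difference was -0.55 ± 0.17 (SE), with an unadjusted limma p of 0.0172 and an adjusted p of 0.566. By experiment it was -0.25, -0.32 and -1.07, and without experiment 3 the mean was -0.29, with an adjusted p of 0.593. Tnfaip3 was 1 of 9 genes with fully separated groups in this direction (5.4% of all genes, and 4.56% in the other direction) and 1 of 9 below an unadjusted p of 0.05 (4.61% of all genes lower and 3.7% higher). Its other probe set, 1450829_at, was dim, at 5.11 ± 0.04 in irradiated cultures and 5.31 ± 0.26 in controls (SD, n = 3 each), and differed by -0.27, 0.11 and -0.46 by experiment. The 2 probe sets therefore gave the same direction in experiments 1 and 3 and opposite directions in experiment 2.

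The start region of Tnfaip3 is shown because this gene had the widest difference, and those of Nfkbia, Nfkb2 and Bcl3 because they set it beside genes with smaller ones. Each window runs from 250 bases before to 50 bases after a RefSeq transcript start (build GRCm38.p6), 5′ to 3′ along the gene's strand. Capitals mark matches to the NF-kB decamer consensus on either strand. The windows are chr10:19015361-19015660 (minus strand) for Tnfaip3, chr12:55492598-55492897 (minus strand) for Nfkbia, chr19:46304487-46304786 (plus strand) for Nfkb2 and chr7:19822706-19823005 (minus strand) for Bcl3.
Tnfaip3: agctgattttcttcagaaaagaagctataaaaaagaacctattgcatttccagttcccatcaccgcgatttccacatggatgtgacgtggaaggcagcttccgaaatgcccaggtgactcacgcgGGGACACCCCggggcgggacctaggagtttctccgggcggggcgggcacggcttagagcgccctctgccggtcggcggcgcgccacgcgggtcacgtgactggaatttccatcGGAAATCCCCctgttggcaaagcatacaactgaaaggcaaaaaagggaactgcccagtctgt
Nfkbia: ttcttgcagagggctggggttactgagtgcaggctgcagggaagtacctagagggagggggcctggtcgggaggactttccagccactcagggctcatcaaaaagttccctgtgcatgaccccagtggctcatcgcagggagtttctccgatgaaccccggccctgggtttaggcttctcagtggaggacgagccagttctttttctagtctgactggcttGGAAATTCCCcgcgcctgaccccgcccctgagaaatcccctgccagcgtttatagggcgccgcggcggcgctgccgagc
Nfkb2: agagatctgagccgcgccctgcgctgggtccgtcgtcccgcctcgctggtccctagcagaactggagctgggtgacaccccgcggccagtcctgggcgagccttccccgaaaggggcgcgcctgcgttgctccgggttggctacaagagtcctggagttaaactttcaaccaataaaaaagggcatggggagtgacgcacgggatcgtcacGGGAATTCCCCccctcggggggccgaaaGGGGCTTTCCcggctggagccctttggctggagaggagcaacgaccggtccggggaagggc
Bcl3: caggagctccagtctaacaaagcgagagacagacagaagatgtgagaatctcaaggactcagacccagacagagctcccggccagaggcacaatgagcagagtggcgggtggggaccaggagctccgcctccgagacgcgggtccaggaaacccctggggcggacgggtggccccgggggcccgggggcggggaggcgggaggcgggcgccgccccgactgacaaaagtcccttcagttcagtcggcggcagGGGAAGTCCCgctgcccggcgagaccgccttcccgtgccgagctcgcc
In Tnfaip3 the match GGAAATCCCC begins 12 bases before the start and GGGACACCCC 125 bases before it. In Nfkbia the match GGAAATTCCC begins 29 bases before the start. Nfkb2 holds the overlapping GGGAATTCCC and GGAATTCCCC, 39 and 38 bases before the start, and GGGGCTTTCC, 11 bases before it. In Bcl3 the match GGGAAGTCCC begins at base 3 of the transcript. All 7 of the genes with an entry in the RefSeq table held the consensus, in 9 of their 10 windows, 2 of which overlap and share a match, against 8.46% of 32851 windows over all genes. The window without a match belongs to another Tnfaip3 start, chr10:19011914-19012213 (minus strand), and is not shown. Nfkb2 has further windows, also not shown, that each hold a match. A match is a run of letters and was not tested for binding, and the genes that hold one differed by as little as 0.01 (Rel) and as much as 0.55 (Tnfaip3) in size on the log2 scale.

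**Figure D1:**
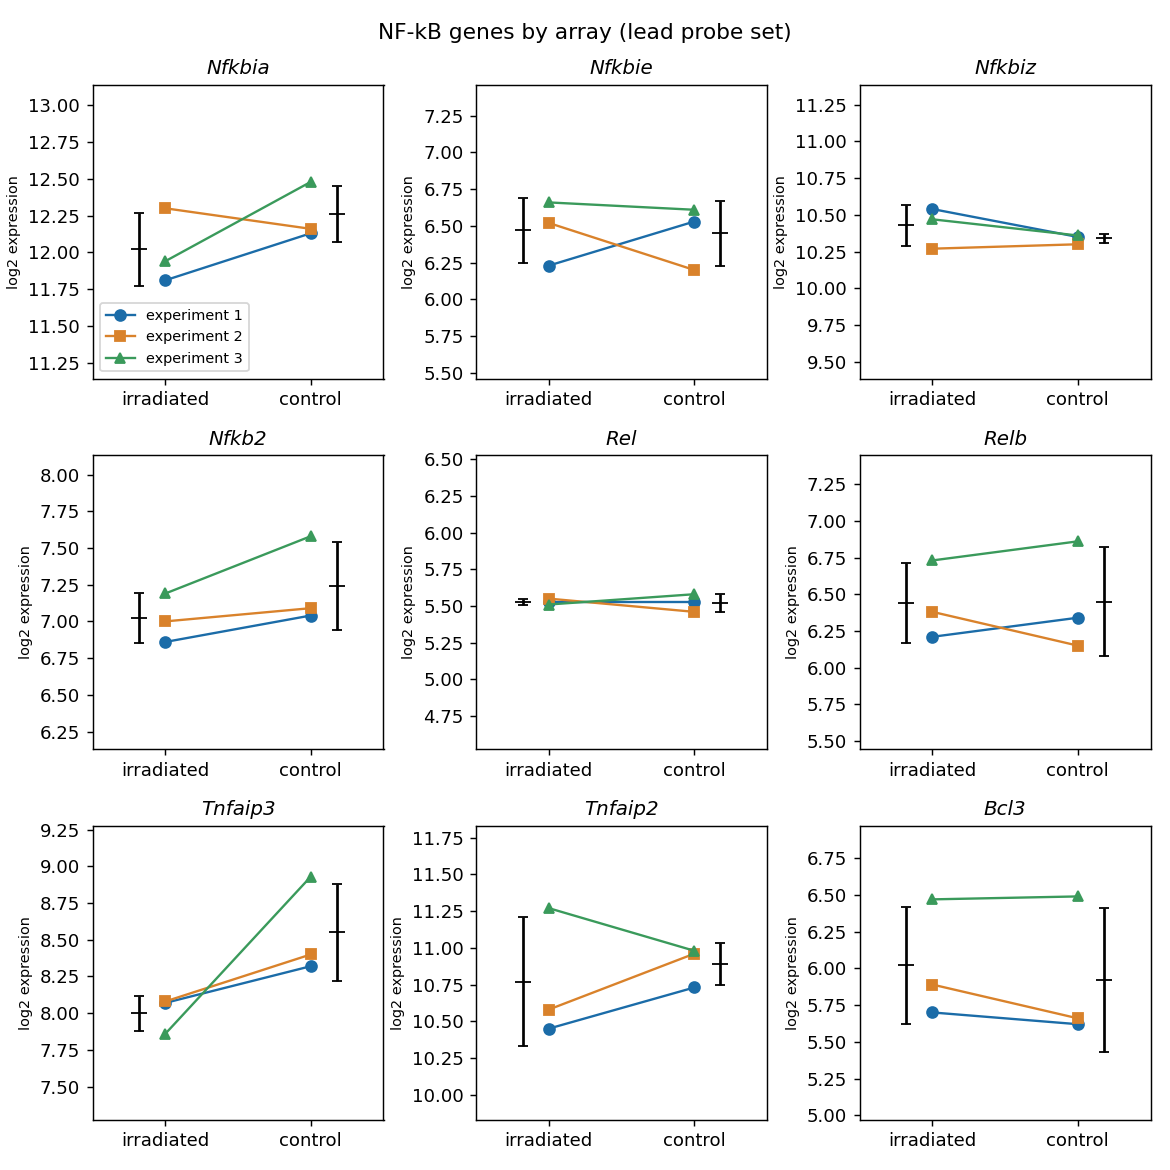
Log2 expression (vertical axis, each panel spanning 2 log2 units) of the 9 NF-kB genes in irradiated cultures (left) and control cultures (right). Coloured symbols joined by a line are the arrays of 1 experiment and black bars are the group mean ± SD (n = 3). In Tnfaip3 all 3 lines climb towards the control, most steeply in experiment 3, while in Bcl3 and Relb experiment 3 lies above the other experiments in both groups.

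Nfkbia encodes IkB-alpha, the main cytoplasmic inhibitor, which NF-kB restores after each round of signalling. Its brightest probe set, 1420088_at, read 11.81, 12.30 and 11.94 in irradiated cultures and 12.13, 12.16 and 12.48 in controls. The groups overlapped, because irradiated culture 2 read above 2 of the 3 controls. The log2 difference was -0.24 ± 0.14 (SE), with an adjusted p of 0.701 by limma, and by experiment it was -0.32, 0.14 and -0.54. Its value was -0.43 without experiment 2 and -0.09 without experiment 3.

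Nfkbia is covered by 5 probe sets, which allows the pattern to be read 5 times from the same RNA. All 5 were lower in irradiated cultures, by -0.13 to -0.36. In experiment 1 they differed by -0.24 to -0.38, in experiment 2 by -0.11 to 0.20 and in experiment 3 by -0.34 to -0.62. Every probe set of Nfkbia was thus lower in experiments 1 and 3, and in experiment 2 they lay on both sides of 0. Probe set 1438157_s_at had the smallest p, with a difference of -0.36 ± 0.12 (SE), an unadjusted p of 0.0221 and an adjusted p of 0.575 by limma. It read 11.37, 11.78 and 11.59 in irradiated cultures and 11.75, 11.89 and 12.18 in controls, so it was lower in each experiment but its groups overlapped. Probe sets of 1 gene share their RNA and are not replicates of the irradiation. With 1449731_s_at of Nfkbia and 1433699_at of Tnfaip3, 3 of the 20 probe sets were lower at an unadjusted p under 0.05, against 4.2% of all probe sets lower and 3.86% higher, and 0 of 20 were higher.

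Nfkbie encodes IkB-epsilon, another cytoplasmic inhibitor that NF-kB induces. It read 6.23, 6.52 and 6.66 in irradiated cultures and 6.53, 6.20 and 6.61 in controls. Experiments 1 and 2 went opposite ways, by -0.30 and 0.32, and experiment 3 differed by 0.05. The mean difference was 0.02 ± 0.14 (SE), with a 95% interval of -0.30 to 0.35. Its dim probe set 1431843_a_at differed by -0.16 ± 0.11 (SE).

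Nfkbiz and Bcl3 encode nuclear members of the IkB family, which bind the p50 and p52 subunits on DNA and can activate as well as repress genes. Nfkbiz read 10.54, 10.27 and 10.47 in irradiated cultures and 10.35, 10.30 and 10.36 in controls. The controls lay within 0.06 of each other and the irradiated cultures on both sides of them. Its difference was 0.09 ± 0.10 (SE), with a 95% interval of -0.15 to 0.33, and its other probe sets differed by -0.01 and -0.10. Bcl3 read 5.70, 5.89 and 6.47 in irradiated cultures and 5.62, 5.66 and 6.49 in controls. Experiment 3 stood above the others in both groups: the experiment means of Bcl3 spanned 0.82, while the difference between the groups was 0.10 ± 0.10 (SE).

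Among the DNA-binding subunits, Nfkb2 encodes p100, the precursor of p52, which itself acts as an inhibitor until it is processed. It read 6.86, 7.00 and 7.19 in irradiated cultures and 7.04, 7.09 and 7.58 in controls. Each irradiated culture lay below its own control, while the groups overlapped. The difference was -0.22 ± 0.11 (SE), with an adjusted p of 0.648 by limma, and by experiment it was -0.18, -0.09 and -0.39. Without experiment 3 it was -0.13. The other Nfkb2 probe set differed by -0.11 ± 0.11 (SE) and was higher in experiment 2, by 0.08. Tnfaip3 and Nfkb2 were the 2 genes of 9 that were lower in all 3 experiments, against 15.1% of all genes lower and 15.7% higher, and 0 of 9 were higher in all 3.

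Relb encodes the partner of p52 in the non-canonical pathway. It read 6.21, 6.38 and 6.73 in irradiated cultures and 6.34, 6.15 and 6.86 in controls. Again the spread lay between experiments, with means that spanned 0.53, and the difference between the groups was -0.01 ± 0.11 (SE), with a 95% interval of -0.28 to 0.26. Rel encodes c-Rel, a subunit best known from lymphocytes. It was dim, below a log2 value of 6 in every culture, at 5.53, 5.55 and 5.51 in irradiated cultures and 5.53, 5.46 and 5.58 in controls. Its difference was 0.01 ± 0.10 (SE), and near background a change could go unseen. Rela, which encodes the widely expressed subunit p65 and is outside the 10 genes, differed by -0.14 ± 0.11 (SE).

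Tnfaip2 is a gene induced by tumour necrosis factor whose product is linked to membrane protrusions. It read 10.45, 10.58 and 11.27 in irradiated cultures and 10.73, 10.96 and 10.98 in controls. Experiments 1 and 2 were lower, by -0.28 and -0.38, and experiment 3 was higher, by 0.29. The mean difference was -0.12 ± 0.15 (SE) and rested on which experiments were included: it was -0.04 without experiment 1, 0.00 without experiment 2 and -0.33 without experiment 3, the last with an unadjusted p of 0.0273 and an adjusted p of 0.593 by limma. Its second bright probe set, 1416273_at, had the same signs, at -0.16, -0.38 and 0.25. Tnfaip2 and Tnfaip3, both named for their induction by tumour necrosis factor, thus went opposite ways in experiment 3.

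**Figure D2:**
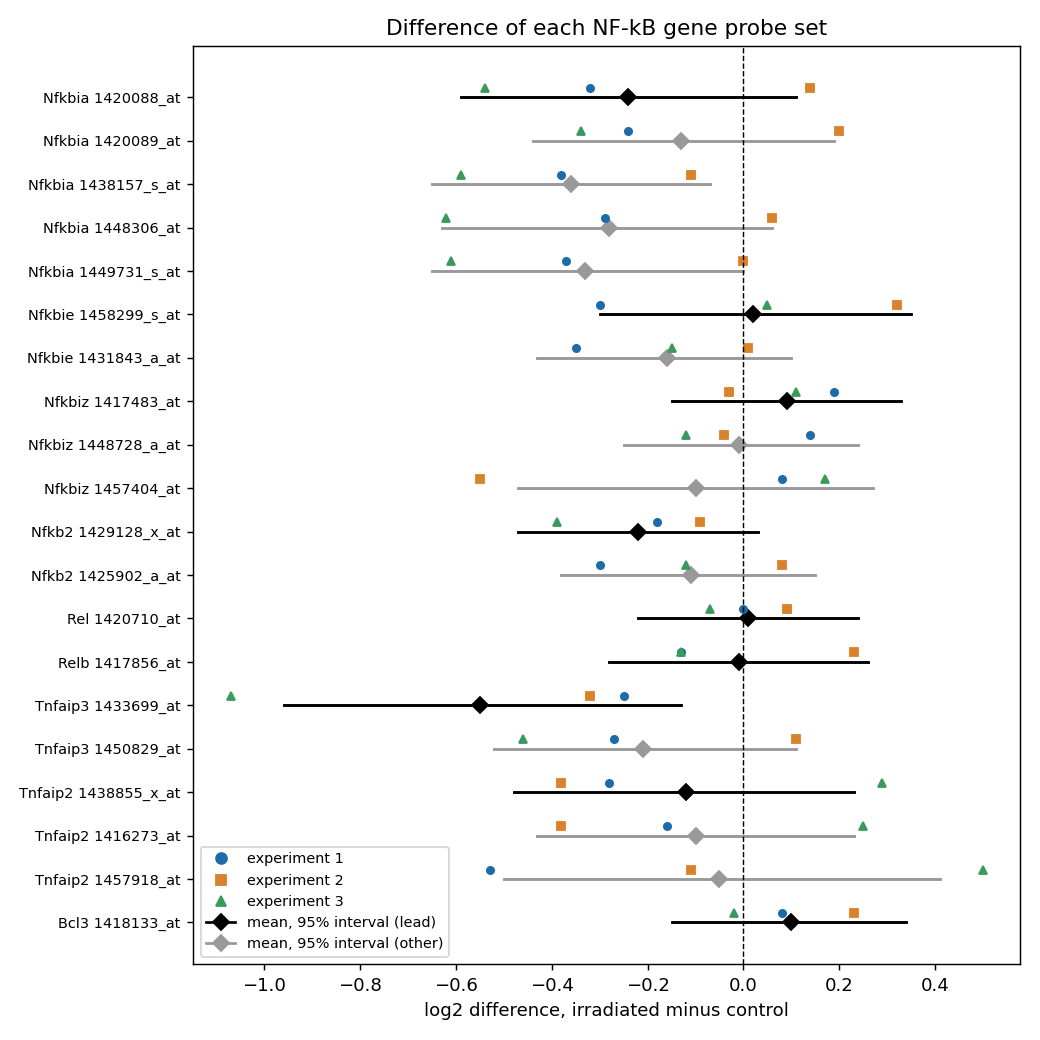
Log2 difference, irradiated minus control, of the 20 NF-kB gene probe sets (vertical axis). Diamonds and bars are the mean and 95% interval of the limma fit, black for the brightest probe set of a gene and grey for its others, and coloured symbols are the 3 experiments. The brightest Tnfaip3 probe set lies furthest from 0, at -0.55, and the 5 Nfkbia probe sets lie between -0.13 and -0.36.

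The median difference of the 9 genes was -0.01, against 0.007 over all 18193 genes. By experiment it was -0.18, 0.09 and -0.07, against 0.00, 0.02 and 0.00 over all genes. Of the 9 genes 5 were lower, against 48% of all genes. The 5 were Nfkbia, Nfkb2, Relb, Tnfaip3 and Tnfaip2, and the 4 higher ones were Nfkbie, Nfkbiz, Rel and Bcl3. Over probe sets 16 of 20 were lower, against 47.1% of all probe sets, a count that Nfkbia enters 5 times.

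The arrays differed from each other in a way that the group labels do not give. The control array of experiment 3 was the highest of the 6 for 6 of the 9 genes, against 21.7% of all genes: Nfkbia, Nfkb2, Rel, Relb, Tnfaip3 and Bcl3. Its lead over the next array was small for Bcl3, at 6.49 against 6.47, and for the dim Rel, at 5.58 against 5.55. The irradiated array of experiment 3 did not share this for Tnfaip3, where it was the lowest of the 6, at 0.42 below the gene's mean. For Bcl3 and Relb both arrays of experiment 3 were high, at 0.50 and 0.29 above the mean in the irradiated culture and 0.52 and 0.42 above it in the control.

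Markers of macrophages, cells in which NF-kB genes are strongly inducible, were bright in these cultures. Of 20 markers 19 had a mean of at least 6, with Lyz2 at 14.16 in irradiated cultures and 14.21 in controls. The summed linear signal of the 20 markers was 64560.0, 95084.0 and 104952.0 array units in irradiated cultures of experiments 1, 2 and 3, and 71805.0, 95722.0 and 115092.0 in their controls. It was lowest in experiment 1 and highest in experiment 3 in both groups. Of the 9 NF-kB genes only Bcl3, Nfkb2 and Tnfaip2 had this order in both groups. The other Nfkb2 probe set, 1425902_a_at, did not, at 6.34, 6.63 and 6.60 in irradiated cultures and 6.64, 6.55 and 6.72 in controls. The macrophage sum was also lower in the irradiated culture of each experiment, though only slightly in experiment 2. On average 17 of 20 markers were lower, where 48% of all genes were, with 0 at an unadjusted limma p under 0.05 in either direction. The median difference of the markers was -0.10, and by experiment it was -0.20, 0.07 and -0.11. The part of macrophage signal in the NF-kB values was not tested, and in bulk RNA fewer cells of a type and less RNA per cell cannot be told apart. Stromal markers fitted the label in part, with 9 of 10 measured ones at a mean of at least 6, while Thy1 was dim at 4.07 in irradiated cultures and 4.11 in controls. Fat cell markers were mostly bright, with Adipoq at 13.55 in irradiated cultures and 13.46 in controls. Lep was dim, at 3.39 in irradiated cultures and 3.55 in controls, and 7 of 8 measured ones had a mean of at least 6. Lymphoid and endothelial markers were dim, with 0 of 7 measured ones at that level in either list. Spiked-in hybridisation controls read a mean of 11.16, 10.82 and 11.73 on the irradiated arrays and 11.08, 10.85 and 11.23 on the controls, so the irradiated array of experiment 3 was brightest in them, and array medians lay between 4.74 and 4.80.

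**Figure D3:**
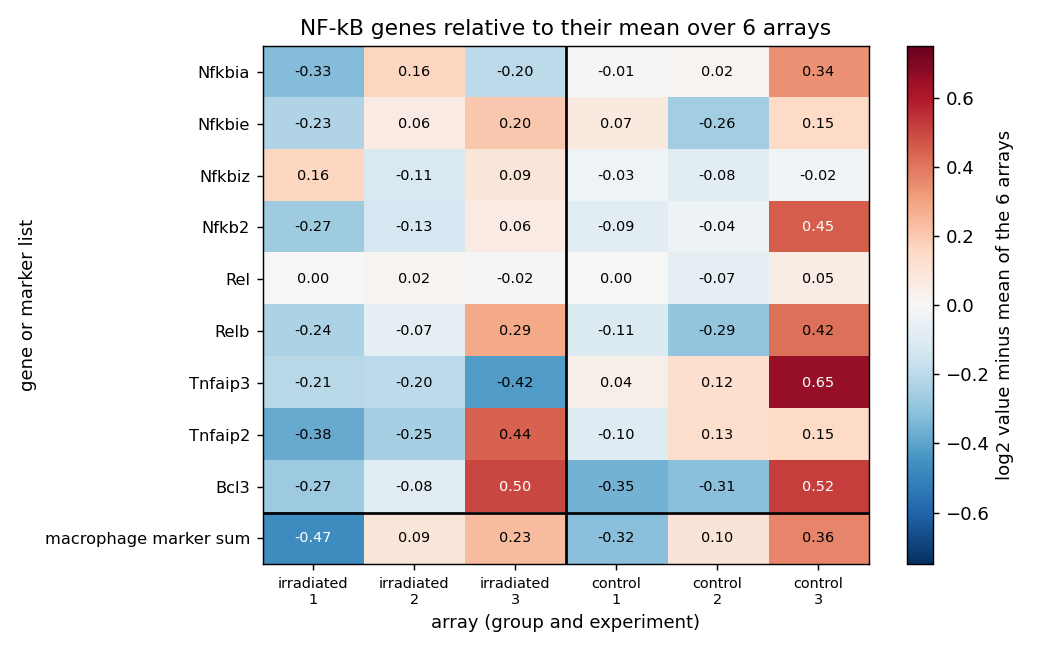
Log2 value of each NF-kB gene on each array minus the gene's mean over the 6 arrays (colour and printed number), with the log2 summed signal of 20 macrophage markers in the bottom row. Irradiated arrays are on the left and control arrays on the right, by experiment. The control of experiment 3 is 0.65 above the mean for Tnfaip3 and 0.52 for Bcl3, and the macrophage sum is lowest in experiment 1 in both groups.

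Above the IkB kinase, ligands that switch the pathway on were mostly dim. Of 11 measured ligand genes 2 had a mean of at least 6, both higher in irradiated cultures: Tnfsf11, which encodes the osteoclast factor RANKL, by 0.35 ± 0.11 (SE) with an unadjusted p of 0.0141, and the cytokine gene Il18 by 0.30 ± 0.10 (SE) with an unadjusted p of 0.0241. The second Tnfsf11 probe set was also higher, by 0.43. Their adjusted p values by limma were 0.558 and 0.575. Il1b, the gene for the cytokine interleukin-1 beta, was dim and read 3.96, 4.32 and 4.43 in irradiated cultures and 4.61, 5.03 and 5.23 in controls. It was lower in each experiment by similar amounts, -0.65, -0.71 and -0.80, with an unadjusted p of 0.000194 and an adjusted p of 0.36 by limma. Tnf, the gene for tumour necrosis factor, had a difference of 0.00 ± 0.11 (SE), also at a dim level, 5.70 in both groups. The ligand list had a median of -0.10, with 6 lower and 5 higher. At an unadjusted p under 0.05, 2 of the 11 were lower, both dim, and 2 higher, against 4.61% and 3.7% of all genes.

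Receptor genes split evenly, with 7 of 14 lower and 7 higher and a median of 0.02. At an unadjusted p under 0.05 there was 1 of the 14, against 4.61% of all genes lower. It was Cd14, the co-receptor for bacterial lipopolysaccharide, which is itself made by macrophages. It read 11.10, 12.26 and 11.50 in irradiated cultures and 11.94, 12.43 and 12.68 in controls, a difference of -0.73 ± 0.19 (SE) with an adjusted p of 0.538. Cd14 was lower in each experiment, by -0.84, -0.17 and -1.18. The step was smallest in experiment 2, where the brightest Nfkbia probe set was higher, by 0.14. The tumour necrosis factor receptor gene Tnfrsf1b differed by 0.21, Tnfrsf12a, the receptor gene of the cytokine TWEAK, by -0.17 and the lipopolysaccharide receptor gene Tlr4 by -0.21. Il1rap, the co-receptor for interleukin-1, differed by 0.18, the mean of 0.00, -0.07 and 0.62 over the 3 experiments.

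Among 24 measured adaptor and kinase genes 14 were lower and 10 higher, with a median of -0.04. At an unadjusted p under 0.05, 2 were lower and 1 was higher, against 4.61% and 3.7% of all genes. After adjustment by limma 0 passed. In all 3 experiments 6 were lower and 2 higher, against 15.1% and 15.7% of all genes. The groups were fully separated in 4 genes below the controls and 1 above, against 5.4% and 4.56% of all genes. Myd88, the adaptor of Toll-like and interleukin-1 receptors, differed by -0.36 ± 0.12 (SE), and by -0.27, -0.19 and -0.61 in the 3 experiments. Traf1, an NF-kB-induced adaptor named here after its values were seen, differed by -0.77 but was dim, with means of 4.64 in irradiated cultures and 5.41 in controls. Ikbkg, the regulatory subunit of the IkB kinase, differed by 0.38 ± 0.11 (SE) in its brightest probe set, while its 5 other probe sets lay between -0.20 and 0.19. Its catalytic partner Ikbkb differed by -0.04 ± 0.10 (SE), with a 95% interval of -0.29 to 0.21. Irak3 and Tank, which restrain or scaffold the upstream kinases, differed by -0.17 and -0.16, and the ubiquitin ligase gene Traf6 by 0.15.

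A further list joined inhibitor and feedback genes with Rbck1, Rnf31 and Sharpin, subunit genes of the linear ubiquitin ligase, so it is not a list of inhibitors alone. Of its 18 measured genes 13 were higher and 5 lower (48% of all genes were lower), with 0 at an unadjusted p under 0.05 in either direction by limma. Their median was 0.04, but 0.10 without experiment 2 and -0.03 without experiment 3. Tnip2, which encodes a partner of A20, differed by 0.27 ± 0.11 (SE) with an unadjusted p of 0.051. Socs3, a feedback inhibitor of cytokine receptors, differed by 0.29 ± 0.12 (SE), Pdlim2, a nuclear terminator of p65, by 0.22, Rbck1, a subunit of the linear ubiquitin ligase, by 0.16 and the ubiquitin ligase gene Itch by -0.17. A list of 4 other NF-kB and IkB genes held the subunit gene Rela with Nfkbib, Nfkbil1 and Nfkbid. All 4 were lower, where 48% of all genes were. Their median of -0.15 ranged from -0.25 to -0.06 with 1 experiment left out. The IkB-beta gene Nfkbib differed by -0.16, while its dim second probe set differed by 0.17. Nfkbil1 differed by -0.06 and the nuclear IkB gene Nfkbid, dim and named after its values were seen, by -0.31.

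NF-kB target genes, the read-out of the pathway, went both ways. Of 36 measured targets 21 were lower and 15 higher, with a median of -0.06. At an unadjusted p under 0.05, 9 were lower and 3 higher, against 4.61% and 3.7% of all genes, and 0 passed adjustment by limma. The list was drawn up with earlier results of these data known. The neutrophil chemokine gene Cxcl1 read 8.41, 8.43 and 8.22 in irradiated cultures and 9.21, 9.07 and 9.07 in controls, while the cytokine gene Il6 read 6.66, 6.55 and 6.95 in irradiated cultures and 6.14, 6.05 and 5.84 in controls. The groups were fully separated in both genes, in opposite directions. Of the 36 targets 3 were fully separated below the controls and 4 above, against 5.4% and 4.56% of all genes. Cxcl5, Ptgs2 and Ier3, a chemokine gene, the inducible cyclooxygenase gene and an early survival gene, were lower in each experiment, and Ptx3, a secreted pattern recognition protein gene, was higher in each. The dim second Ptx3 probe set differed by 0.34, 0.05 and -0.01. In experiment 3, where Tnfaip3 was furthest below its control, Ier3 and Il6 also differed most, by -1.14 and 1.11. Ptx3 and Cxcl1 did so only in their brightest probe sets, by 0.90 and -0.85. Cxcl5 and Ptgs2 differed least there, by -0.30 and -0.22, but the dim second Ptgs2 probe set differed least in experiment 1, by -0.13.

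**Figure D4:**
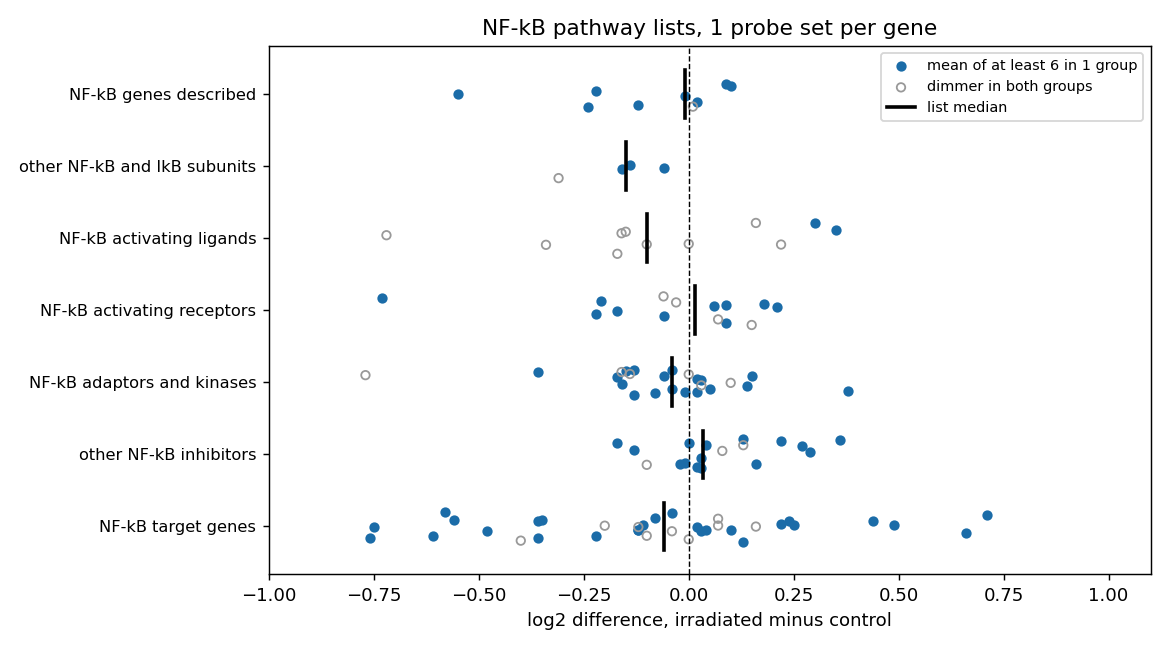
Log2 difference, irradiated minus control (horizontal axis), of each gene in 7 lists of NF-kB pathway genes, 1 probe set per gene. Filled points had a mean of at least 6 in 1 group, open points were dimmer in both, vertical jitter has no meaning and black bars are list medians. The 7 medians lie between -0.15 and 0.04, and target genes spread the widest, with Cxcl1 at -0.76 and Il6 at 0.71.

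Over the 6 arrays the expressed genes whose log2 values followed Tnfaip3 most closely, out of 9301, were Arid4a, Sh2b2, Tbc1d23, Tsg101 and Nf2, with a Pearson r of 0.986 to 0.994 across 6 arrays that share 3 experiments. These genes were picked for a high r, so its size is no test of a link to Tnfaip3. Arid4a, a chromatin regulator gene, read 6.86, 6.96 and 6.76 in irradiated cultures and 7.14, 7.26 and 7.72 in controls, so it too peaked in the control of experiment 3. Its difference was -0.51, and that of Tsg101, a subunit gene of the endosomal sorting machinery, was -0.06. No NF-kB gene was among the 5.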

How the data were processed

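RNA from 6 cultures (200 ng each) was labelled with biotin and hybridised to Affymetrix mouse arrays, per the labels' protocols. The authors deposited log2 values per probe set, for which RMA, affy and limma are named, per the submitters' processing notes. Not given in the sources used here are their versions, the background correction and which arrays were normalized as a set. Precision is bounded by having only 6 arrays.

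After removal of 64 control probe sets 45037 of 45101 were tested. The platform annotation gave 34945 of them a single symbol. Where a gene had several probe sets, the brightest on average stood for it, which left 18193 genes. A mean log2 value under 6 in both groups was called dim. The comparison used limma 3.58.1 (R 4.3.3; lmFit and eBayes, two-sided), blocked by experiment, and p was adjusted by the Benjamini-Hochberg method across all tested probe sets, with a threshold of 0.05. Residual and prior degrees of freedom were 2 and 4.52. The procedure was tested on simulated data. Pairing rests on the series' design text, and deviations of paired arrays correlated at 0.787, 0.028 and 0.324 over 9302 genes. With 3 pairs an exact sign-flip permutation test cannot go below 0.25, so none was run on single genes.

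The 10 genes and the pathway lists were chosen with earlier results of these data known, so no list was tested. Named genes were all 10, up to 5 expressed genes per pathway list by the size of the moderated statistic, 9 fixed genes and the 5 most like Tnfaip3. Chuk, a fixed gene, is not analysed here. Promoter windows came from RefSeq, which held 7 of the 10. The alternatives varied the block (none or random), the experiments (each left out), the probe sets (bright ones, the brightest per gene or their mean), the scaling (quantile or median), the variance prior (trended and robust) and array weights. Figures used matplotlib 3.10.9 in Python 3.11.15.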

Additional observations from a re-analysis of the deposited data

How the results depend on the processing

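Over 12 alternatives the count of NF-kB genes past an adjusted p of 0.05 stayed at 0, as did the count higher at an unadjusted p under 0.05. The count lower at an unadjusted p was 1, and 1 to 2 with 1 experiment left out: Nfkbia joined Tnfaip3 without experiment 2, and Tnfaip2 joined it without experiment 3. Without the replicate block Tnfaip3 kept its difference of -0.55 at an adjusted p of 0.998, and the count over all probe sets at an unadjusted p under 0.05 was 2168, against 3631 with the block. The block changed no call of an NF-kB gene. Tnfaip3 ranged from -0.69 to -0.29, Nfkbia from -0.43 to -0.09 and Nfkb2 from -0.28 to -0.13, each keeping its sign. Of 107 values for the 9 genes, 8 changed sign, in genes close to 0. Nfkbie became -0.12 without experiment 2 (0.18 without experiment 1), -0.04 with array weights and -0.07 as the mean over its probe sets. Nfkbiz became -0.01 as the mean over its probe sets, and Rel -0.04 without experiment 2. Relb became 0.05 without experiment 1, 0.05 without experiment 3 and 0.01 with quantile normalization. The cause was not tested, beyond the fewer samples of a left-out experiment and the other probe sets in a mean. Rel had no value with dim probe sets left out. The median of the 9 genes ranged from -0.12 to 0.01. That of the ligands turned from -0.10 to 0.33 with dim probe sets left out, when 2 genes remained. Only 3 pairs and a dim signal for Rel and several ligands limit what could be detected.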
